A study of Homo sapiens with 6 samples.

Results

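The genes described here build and run the transport system of the primary cilium. They were chosen by name as the intraflagellar transport (IFT), Bardet-Biedl syndrome (BBS) and transition zone genes, and came to 40 of the 57341 gene names in the count table. Each is a single row of the table. By role, 12 encode subunits of the IFT-B complex, 6 subunits of the IFT-A complex, 5 the cilium motors, 7 subunits of the BBSome, 3 the chaperonin-like proteins that assemble it, 3 the adaptors and a cargo enzyme of the ciliary membrane (ARL6, TULP3 and INPP5E), and 4 the transition zone.

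The RNA came from H295R, an established human adrenocortical carcinoma line that makes steroids. The libraries labelled H295R were from the parental line, and those labelled H295R-PM-Ptc+ from cells of that line that had been sorted by FACS for Ptch1, the Hedgehog receptor, at the plasma membrane and then grown up. Both were untreated and kept in the same medium, and each had 3 replicates. The sorted population is defined by a protein at the cell surface before it was grown up, so it is a model of that sorted and regrown population and not of cells taken directly from the sort, and no source used here says whether its replicates were separate sorts. The comparison asks how the sorted population differs from its parental line, and here it is read for the cilium genes.

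The primary cilium is a single antenna-like projection of the cell membrane on a core of microtubules. Kinesin-2 carries trains of IFT-B outward along that core, and dynein-2 with IFT-A brings them back. The BBSome is a coat that rides on these trains and takes membrane proteins out of the cilium, and the transition zone is the gate at its base. In vertebrates Hedgehog signaling runs through the cilium: Ptch1 sits in the ciliary membrane and leaves it when ligand binds, Smoothened enters it, and the GLI factors pass through its tip. Loss of these genes in humans causes ciliopathies such as Bardet-Biedl, Joubert and Meckel syndromes.

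Many ciliary genes are controlled by RFX factors, which bind the X-box, a sequence built around the half-site GTTGCC. RefSeq promoters (GRCh38.p14), each taken from 250 bases before the annotated start to 50 bases after it, were matched by symbol for 37 of the 40 genes, and WDR35, BBS9 and TMEM67 had none. The letters GTTGCC, searched on both strands (GGCAAC on the other), stood in a promoter of 16 of the 37, or 43.2%. The share was 14.6% of all gene symbols with a promoter and 17.0% of the 10517 tested genes with one. For each role, the site nearest to a start is printed here in 30 bases in the direction of the gene, with the half-site in capitals, since this is the promoter element that was searched for.
IFT81: ggcctagcaaccGTTGCCaaggagctcgac
IFT122: ccgcgcatgtacGTTGCCaggggtaacgca
DYNC2LI1: cgtcgctcccatGGCAACccagaaggcctc
BBS1: agggcggggccgGTTGCCaggacgacgcct
BBS10: gaggggcttaggGTTGCCgctccaggcaca
ARL6: gaagaagctcctGTTGCCaagggaacggtg
MKS1: tccagcgtctccGTTGCCaggaaaacagag
The 7 stretches lie at chr12:110124345-110124374 (plus strand), chr3:129440200-129440229 (plus), chr2:43774019-43774048 (plus), chr11:66510624-66510653 (plus), chr12:76348619-76348648 (minus), chr3:97764722-97764751 (plus) and chr17:58219272-58219301 (minus), in that order. In IFT81 the half-site began at base 1 of the transcript and in BBS1 at base 2, and in BBS10 it lay well upstream of the start. A match of 6 letters is a description of the promoter and not a bound site. The genes with the half-site had a median log2 fold change between the groups of -0.08 and those without it of -0.03.

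The 6 libraries held between 23264403 and 25813247 counts each, and the first replicate of each group stood apart from the other replicates along the second principal component (27.6% of the variance, against 45.7% for the first, which separated the groups). Same-numbered libraries deviated together, with correlations of 0.497, 0.307 and 0.228. Differently numbered ones had negative correlations where replicate 1 was involved, and 0.109 and 0.15 between replicates 2 and 3. The pairing was thus clearest for replicate 1. The fit with the replicate number as a block (the replicate block) is given beside the one without it. PTCH1, the gene of the sorted protein, had 441, 559 and 579 counts with the H295R label and 248, 326 and 319 with the H295R-PM-Ptc+ label. Its log2 fold change was -0.81 (SE 0.147, adjusted p = 0.0207 in edgeR's quasi-likelihood test, and 1.72e-06 with the block). DESeq2 without the block gave an adjusted p of 7.09e-05 and limma-voom 0.0218. A two-sided exact permutation test gave p = 0.1, the smallest that 3 against 3 allows. In edgeR without the block, leaving out H295R replicate 2 gave an adjusted p of 0.0799, leaving out H295R replicate 3 gave 0.0921, and leaving out H295R-PM-Ptc+ replicate 2 gave 0.0618. The size of the change was -0.91 to -0.67 (log2) over the 6 libraries left out in turn. The direction goes against the labels, and the normalized values published with the study hold the same columns with the group names exchanged. Every direction given here is therefore that of the libraries as labelled, and it would turn if the names were exchanged.

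All 40 genes passed the filter on low counts. They held between 22 and 4471 counts in a library, and 38 of them at least 100 in every library. Per kilobase of exon, the scale on which genes can be set side by side, their median level was 4.62 CPM (each library's counts scaled to the same total) against 4.25 for all 16710 genes tested, and 22 of the 40 were above that median. Their summed level lay between 1530 and 1600 CPM with the H295R label and between 1460 and 1560 CPM with the H295R-PM-Ptc+ label, so these ranges overlapped.

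TULP3, which brings receptors and other membrane proteins into the cilium with IFT-A, had the highest mean level per length. It was at 24.6 ± 1.25 CPM per kilobase (SD, n = 6 libraries) and above 87.2% of the genes tested. KIF3A (21.1 ± 3.4), BBS2 (19.1 ± 1.9), KIF3B (19.0 ± 1.66), IFT57 (18.8 ± 0.643) and IFT52 (18.0 ± 1.11) came next on the same scale. Each range over libraries overlapped the next, so these ranges show no order among the 5. The range of KIF3A, from 16.9 to 25.7, also overlapped that of TULP3, from 23.2 to 26.6.

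BBS1 had the lowest level. This BBSome subunit, bound by the small GTPase ARL6, had 0.174 ± 0.0294 CPM per kilobase, and its range lay below that of every other gene of the 40. Next came BBS5, which had 1.12 ± 0.159, and then BBS12 (1.42 ± 0.0836), BBS9 (1.42 ± 0.139) and IFT43 (1.47 ± 0.14), followed by TMEM67 (1.55 ± 0.0553) and DYNC2H1 (1.62 ± 0.39). From BBS5 to DYNC2H1 the ranges of neighbours in this order overlapped or met, so these ranges show no order between neighbours. Within each library, however, BBS12 was above BBS5. Subunits of the same complex thus spanned from 0.174 for BBS1 to 19.1 for BBS2. Of the exon bases of BBS1, 53.9% are also annotated on the same strand to CTD-3074O7.11, another gene name with 0 counts in all 6 libraries, and 21.9% of those of BBS5 and 27.2% of those of IFT80 are shared in the same way with RP11-724O16.1 and RP11-432B6.3. Reads in shared bases are left uncounted by the counting options given, so the levels of BBS1, BBS5 and IFT80 are uncertain and may be too low.

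**Figure D1:**
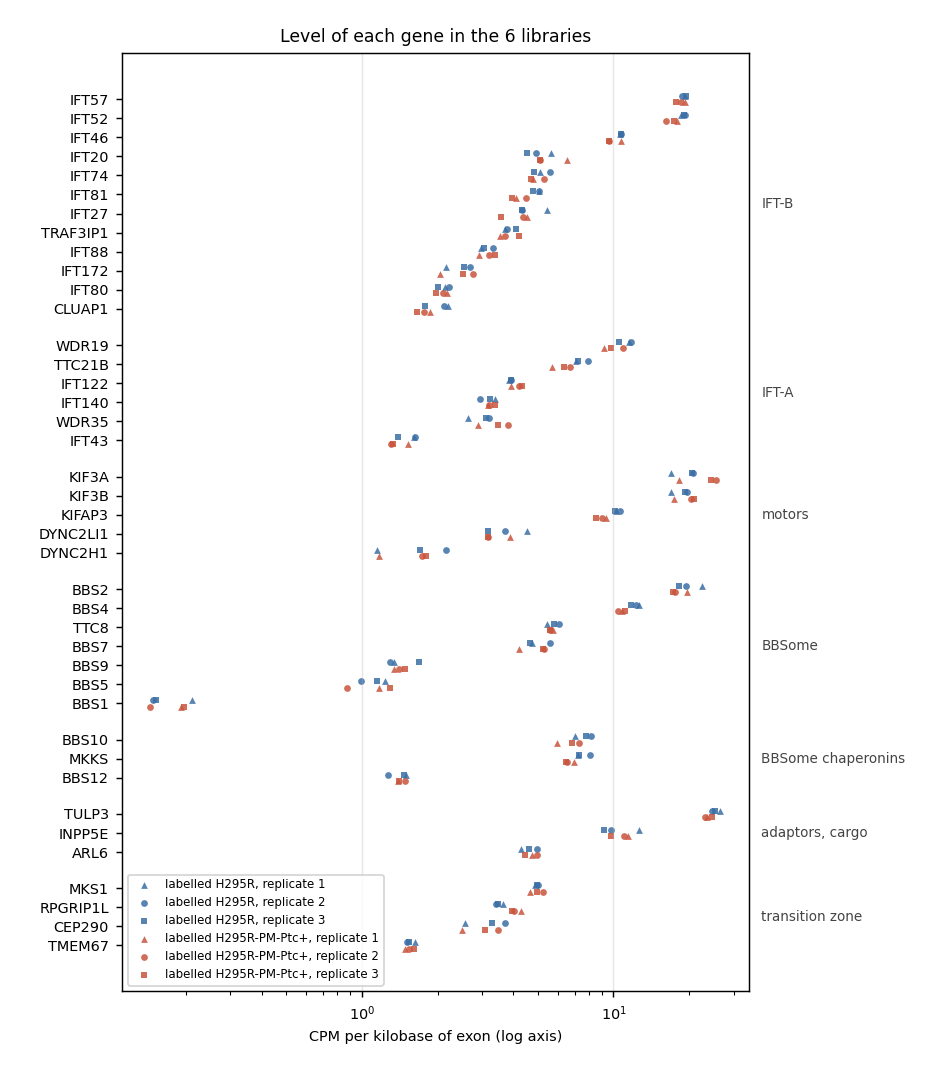
Level of each of the 40 genes in CPM per kilobase of exon (log axis), grouped by role. Each point is a library, with blue for those labelled H295R, red for those labelled H295R-PM-Ptc+, and triangles, circles and squares for replicates 1, 2 and 3. Genes span from 0.174 for BBS1 to 24.6 for TULP3, and the 6 points of a gene lie close together beside that span.

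Between the groups, none of the 40 genes passed the test. EdgeR's quasi-likelihood test called 0 at an adjusted p under 0.05, as did DESeq2 and limma-voom, while 3.73% of all genes tested were called. In simulated data edgeR's test without the block recovered 0% of changes of 1.25-fold, so a count of 0 does not exclude changes that small. At an unadjusted p under 0.05 there were 6 of the 40 (15%), against 17.3% of all genes. The 95% interval of the change lay within 1.5-fold either way for 38 of the 40, against 65.3% of all genes, the exceptions being DYNC2H1 and BBS1. Fitted log2 fold changes ranged from -0.25 to 0.23 with a median of -0.03, against 0.0 over all genes. Without 1 library that median was -0.08 to -0.04. The changes were below 0 for 27 of 40 (67.5%) against 49.8% of all genes. Of the 40 fitted changes, 17 changed sign under at least 1 of the alternatives tried, and 17 stayed below 0 and 6 above 0 in all of them. In bulk RNA, fewer cells carrying a transcript and less of it per cell cannot be told apart.

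With the replicate block, 10 of the 40 genes passed (25%), against 22.5% of all genes tested. KIF3A and RPGRIP1L were higher with the H295R-PM-Ptc+ label (2 genes, against 12.1% of all genes called higher), and IFT81, WDR19, TTC21B, KIFAP3, BBS2, BBS4, MKKS and BBS10 were lower (8 genes, or 20%, against 10.4% of all genes called lower). There was no overlap between the groups for 7 genes (17.5%), namely RPGRIP1L, which was higher, and IFT52, IFT81, TTC21B, KIFAP3, BBS4 and MKKS, which were lower. Over all genes 23.5% had none. In every same-numbered pair, 15 genes were lower (37.5%, against 25.7% of all genes) and 6 were higher (15%, against 26.9%), or 21 in 1 direction (52.5%, against 52.6%). Without replicate 1 of both groups, a setting chosen after seeing the data, KIF3A, KIFAP3 and MKKS were called, or 3 of 40 against 12% of all genes.

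**Figure D2:**
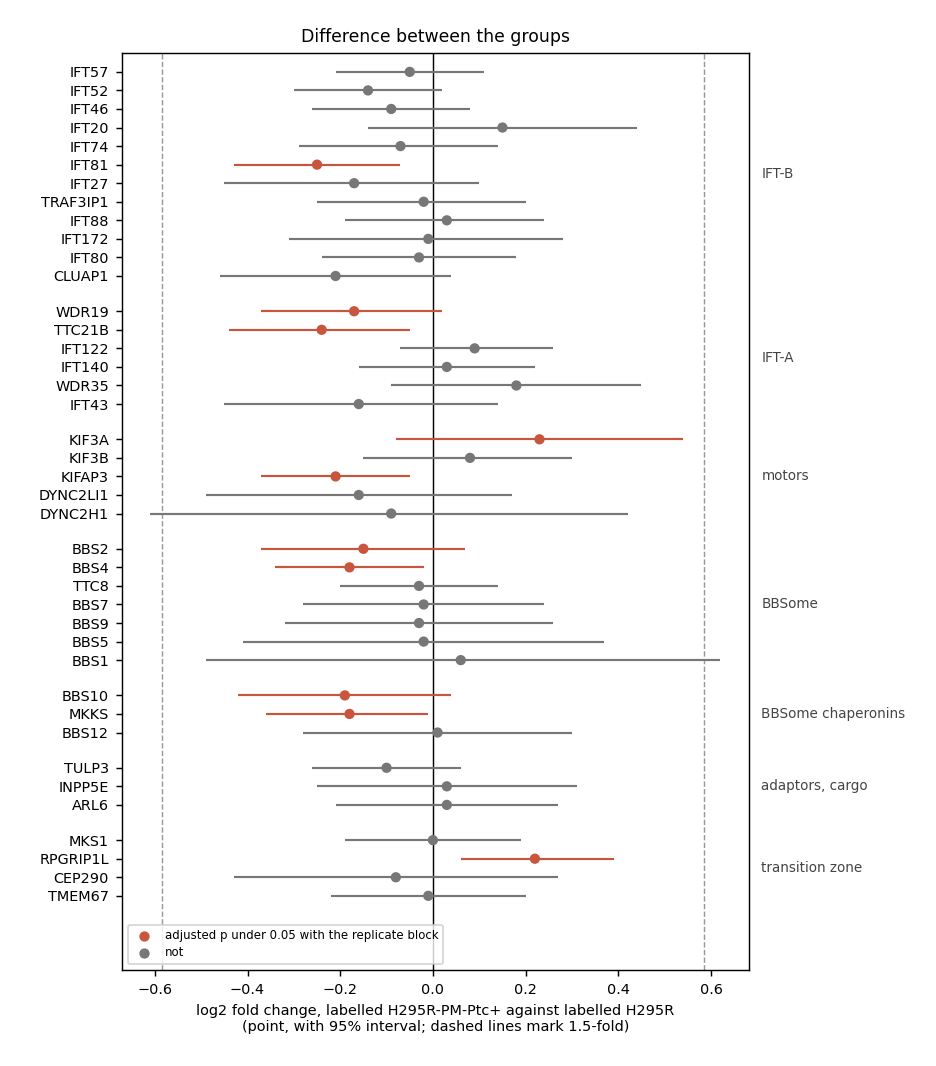
Log2 fold change of each gene, those with the H295R-PM-Ptc+ label against those with the H295R label, from the fit without the block, with its 95% interval and grouped by role. Red marks the 10 genes called with the replicate block, and the dashed lines mark 1.5-fold. All points lie between -0.25 and 0.23.

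IFT-B, the complex that carries cargo such as tubulin outward, had fitted changes below 0 in 10 of its 12 subunits (against 49.8% of all genes), of which those of IFT80, IFT172 and TRAF3IP1 were near 0 and turned or reached 0 without 1 library. IFT81 (chr12:110124335-110218797, positions being those deposited with the counts, GRCh38), which binds tubulin together with IFT74, was at 35.5, 35.3 and 33.4 CPM with the H295R label and at 28.6, 31.5 and 27.6 CPM with the H295R-PM-Ptc+ label. All 3 of the latter were below all 3 of the former. In the values that follow, the libraries with the H295R label come first. The log2 fold change was -0.25 (SE 0.08, adjusted p = 0.141), and the adjusted p was 0.00726 with the replicate block. Its partner IFT74 was at -0.07 on that scale (adjusted p = 0.776), and at -0.13 to -0.01 without 1 library.

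IFT20, which also links the train to the Golgi, was at 18.2, 15.9 and 14.7 CPM against 21.1, 16.5 and 16.5 CPM. The groups overlapped, and the first replicate was the highest in each of them. The log2 fold change was 0.15 (SE 0.128, adjusted p = 0.634), and 0.188 was its adjusted p with the block. That change rested on the first replicate labelled H295R-PM-Ptc+, without which it was 0.01. Of the other subunits, CLUAP1 had a fitted log2 change of -0.21 (adjusted p = 0.387), IFT27 of -0.17 (adjusted p = 0.532, and a change of -0.06 without H295R replicate 1) and IFT52 of -0.14 (adjusted p = 0.374), and IFT46, IFT57, IFT80, IFT88, IFT172 and TRAF3IP1 lay between -0.09 and 0.03. None of these was called with the block.

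The IFT-A complex, which serves return transport and the entry of membrane proteins, had no common direction, with 3 of 6 subunits below 0. TTC21B (chr2:165857475-165953843) was at 53.5, 59.6 and 54.3 CPM with the H295R label and at 43.0, 50.6 and 47.8 CPM with the H295R-PM-Ptc+ label, with no overlap. Its log2 fold change was -0.24 (SE 0.0861, adjusted p = 0.18, and 0.0033 with the block). WDR19, another subunit of the complex, was at 102, 104 and 93.2 CPM against 81.5, 96.4 and 87.0 CPM, with overlap. It was called with the block alone (log2 fold change -0.17, adjusted p = 0.352 without it and 0.0241 with it).

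WDR35 lay on the other side of 0. It was at 20.8, 25.0 and 24.4 CPM against 22.6, 29.9 and 27.2 CPM, so the groups overlapped although each pair of same-numbered libraries was higher in the one labelled H295R-PM-Ptc+. The log2 fold change of WDR35 was 0.18 (SE 0.12, adjusted p = 0.5, and 0.0556 with the block), and it was 0.1 when H295R replicate 1 was left out. With the H295R-PM-Ptc+ label, leaving out replicate 1 gave 0.28 and leaving out replicate 2 gave 0.09. IFT43, IFT122 and IFT140 lay between -0.16 and 0.09 and were called in neither fit.

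Within heterotrimeric kinesin-2, the outward motor, the motor subunits KIF3A and KIF3B and the accessory subunit KIFAP3 did not share a direction. KIF3A (chr5:132692628-132737638) was at 116, 142 and 141 CPM with the H295R label and at 125, 176 and 167 CPM with the H295R-PM-Ptc+ label. The groups overlapped, with the first replicates low in both, while each same-numbered pair was higher in the latter. The change came to 0.23 on the log2 scale (SE 0.137, adjusted p = 0.45), and the adjusted p was 0.00317 with the block. Without the block it was 0.14 when H295R replicate 1 was left out, 0.13 when H295R-PM-Ptc+ replicate 2 was, and 0.36 when H295R-PM-Ptc+ replicate 1 was.

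KIFAP3 (chr1:169921326-170085208) was at 51.1, 52.7 and 50.6 CPM against 46.6, 44.8 and 42.4 CPM. Its groups did not overlap and its log2 fold change was -0.21 (SE 0.0715, adjusted p = 0.17, and 0.0108 with the block). For KIF3B the change was 0.08 on the log2 scale (adjusted p = 0.77, and 0.26 with the block), and 0.01 to 0.15 without 1 library. The 20 tested genes nearest to KIF3A on chromosome 5 had a median log2 fold change of 0.16, with 15 of them above 0, and those nearest to KIF3B on chromosome 20 one of 0.1. Those nearest to KIFAP3 on chromosome 1 had a median of 0.02. Whether the neighbourhood of KIF3A bears on its value was not tested.

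The return motor is dynein-2, with DYNC2H1 as its heavy chain and DYNC2LI1 as its light intermediate chain. Their log2 fold changes between the groups were -0.09 (SE 0.228) and -0.16 (SE 0.145), with adjusted p of 0.898 and 0.654, and neither was called with the block (0.535 and 0.17). Without 1 library the change of DYNC2H1 ran from -0.3 to 0.14 and that of DYNC2LI1 from -0.29 to -0.01, the latter value being that without H295R replicate 1. The interval for DYNC2H1, from -0.61 to 0.42, was among the widest of the 40 genes.

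**Figure D3:**
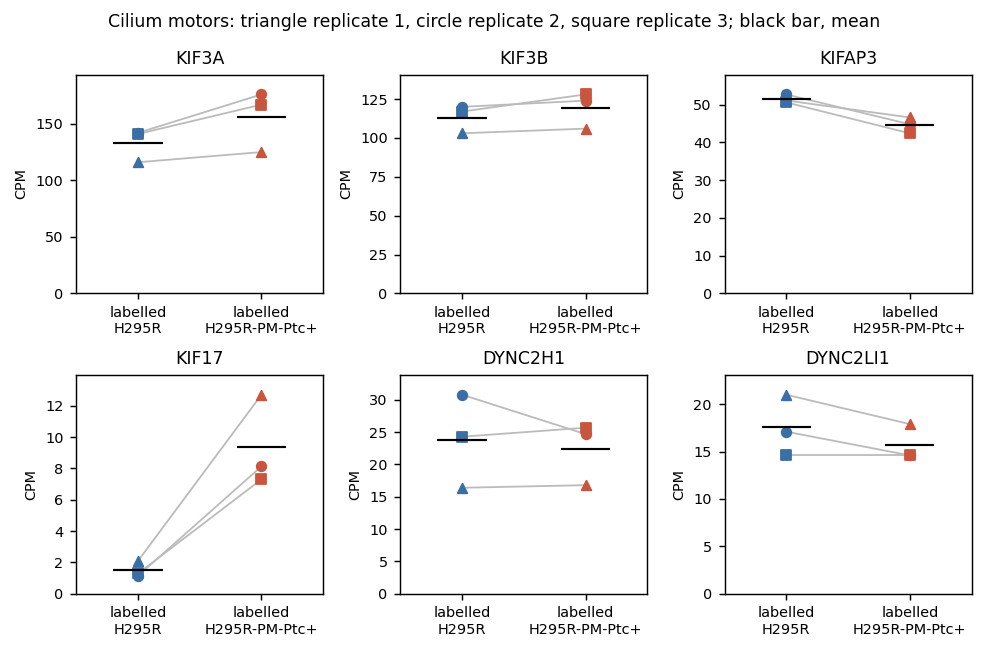
CPM of 6 cilium motor genes in each library, each panel with its own axis starting at 0. Grey lines join libraries with the same replicate number and black bars are group means. KIF3A is higher and KIFAP3 lower in every pair, DYNC2H1 is lowest in the first replicates, and KIF17, a motor outside the 40 genes, goes from 1.51 to 9.38 CPM.

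Of the 7 BBSome subunits, 6 had fitted changes below 0 (against 49.8% of all genes), but those of BBS5, BBS7, BBS9 and TTC8 were near 0 and turned or reached 0 without 1 library. BBS4 (chr15:72686179-72738476), which helps bring the BBSome to the centriolar satellites, was at 52.6, 51.0 and 48.9 CPM with the H295R label and at 44.8, 43.3 and 46.3 CPM with the H295R-PM-Ptc+ label. Those groups did not overlap. The log2 fold change was -0.18 (SE 0.0711, adjusted p = 0.227, and 0.0255 with the block). BBS2, the most abundant subunit per length, was at 187, 162 and 152 CPM against 163, 146 and 144 CPM, with overlap, and showed a log2 change of -0.15 (adjusted p = 0.494, and 0.0269 with the block), or of -0.06 without H295R replicate 1.

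BBS1 was the only subunit with a fitted change above 0. It was at 1.3, 0.906 and 0.93 CPM against 1.17, 0.885 and 1.21 CPM, with a log2 fold change of 0.06 (SE 0.246, adjusted p = 0.936). At this depth, 22 to 31 counts a library, a change within the interval from -0.49 to 0.62 could not be told from 0. BBS5, BBS7, BBS9 and TTC8 lay between -0.03 and -0.02, with 95% intervals reaching from -0.41 to 0.37 at the widest, that of BBS5.

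MKKS, BBS10 and BBS12 are related to chaperonins and help fold BBSome subunits into the complex. MKKS (chr20:10401009-10434222) was at 50.2, 56.2 and 50.9 CPM against 48.4, 45.4 and 45.0 CPM, without overlap (log2 fold change -0.18, SE 0.0773, adjusted p = 0.273, and 0.0363 with the block). BBS10 was at 25.2, 29.4 and 28.1 CPM against 21.5, 26.3 and 24.7 CPM, and its groups overlapped through the low first replicate labelled H295R. The log2 fold change of BBS10 was -0.19 (SE 0.101, adjusted p = 0.398, and 0.0406 with the block), or -0.12 without H295R-PM-Ptc+ replicate 1.

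BBS12 was at 5.15, 4.37 and 5.06 CPM against 4.77, 5.07 and 4.84 CPM, with a log2 fold change of 0.01 (95% interval from -0.28 to 0.3).

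The adaptors and the cargo enzyme had fitted log2 fold changes from -0.1 to 0.03. ARL6, the GTPase that recruits the BBSome to membranes, was at 9.67, 11.2 and 10.4 CPM against 10.7, 11.2 and 10.1 CPM, with a log2 fold change of 0.03 (SE 0.105, adjusted p = 0.921). TULP3 was at 84.5, 78.1 and 80.4 CPM against 74.5, 73.7 and 78.5 CPM. Its groups overlapped, with a log2 fold change of -0.1 (SE 0.0716, adjusted p = 0.539, and 0.163 with the block). INPP5E, the phosphoinositide phosphatase of the ciliary membrane, had a log2 fold change of 0.03 (SE 0.125, adjusted p = 0.941).

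Of the transition zone genes, RPGRIP1L (chr16:53597683-53703938), a scaffold at the base of the cilium, was the only gene of the 40 with all libraries labelled H295R-PM-Ptc+ above all those labelled H295R. It was at 46.9, 43.9 and 44.8 CPM in the latter and at 55.4, 51.9 and 51.0 CPM in the former. Its log2 fold change was 0.22 (SE 0.0725, adjusted p = 0.144, and 0.00569 with the block). MKS1 and TMEM67, named for Meckel syndrome, had log2 fold changes of 0.0 (95% interval from -0.19 to 0.19) and -0.01 (from -0.22 to 0.2).

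CEP290, which tethers the ciliary membrane to the microtubules, was at 26.7, 38.5 and 34.1 CPM against 25.9, 36.2 and 32.1 CPM. The order of the replicates was the same in both groups, lowest in the first and highest in the second. Between the groups the log2 fold change of CEP290 was -0.08 (SE 0.155, adjusted p = 0.87).

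At many of these genes, as over all genes tested, the replicates differed by more than the groups did. The first replicates against the others had a median absolute log2 difference of 0.124 over the 40 genes, against 0.0842 between the groups in the same fit. Over all genes tested these medians were 0.17 and 0.131. The replicate difference was the larger in 24 of the 40 (60.0%) and in 56.0% of all genes tested. Between replicates 12 of the 40 were called (30%, against 30.8% of all genes). Higher in the first replicates were IFT20, IFT27, DYNC2LI1, BBS2 and INPP5E (5 genes, or 12.5%, against 14.2% of all genes), and lower were IFT172, WDR35, DYNC2H1, KIF3A, KIF3B, BBS10 and CEP290 (7 genes, or 17.5%, against 16.6%). A shared replicate number stands for nothing further in the labels than a code, so what differed in those first libraries is not known.

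The motors gave the clearest case. DYNC2H1 was at 16.4 and 16.8 CPM in the first replicates and between 24.3 and 30.8 CPM in the other 4 libraries. Its log2 difference was -0.67 (SE 0.0879, adjusted p = 3.51e-05), the largest of the 40 genes. DYNC2LI1, which works beside it in dynein-2, went the other way, at 21.0 and 17.9 CPM in the first replicates and between 14.6 and 17.1 CPM in the others.

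The log2 difference of DYNC2LI1 was 0.35 (SE 0.0811, adjusted p = 0.00379). For KIF3A the log2 difference was -0.37 (SE 0.0513, adjusted p = 4.88e-05) and for KIF3B it was -0.23 (SE 0.0482, adjusted p = 0.00179). The remaining kinesin-2 subunit, KIFAP3, had 0.04 (adjusted p = 0.642).

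CEP290 had a log2 difference of -0.42 (SE 0.0636, adjusted p = 0.000128), IFT172 of -0.32 (adjusted p = 0.00369) and WDR35 of -0.29 (adjusted p = 0.00445). These calls and those of the motors were also made without any 1 library, but where a first replicate is left out the other one stands alone, and its spread is then assumed to be that of the remaining libraries. Calls of 5 other genes were lost in at least 1 case. The adjusted p of IFT27 was 0.109 when H295R replicate 1 was left out and 0.0619 when H295R-PM-Ptc+ replicate 3 was, and that of INPP5E was 0.181 when H295R replicate 1 was left out. BBS2 gave 0.0554 after H295R replicate 3 was removed and IFT20 gave 0.0627 after H295R-PM-Ptc+ replicate 1 was. BBS10 gave 0.101 when H295R replicate 3 was left out, and 0.0947 and 0.0971 when replicates 1 and 3 with the H295R-PM-Ptc+ label were.

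**Figure D4:**
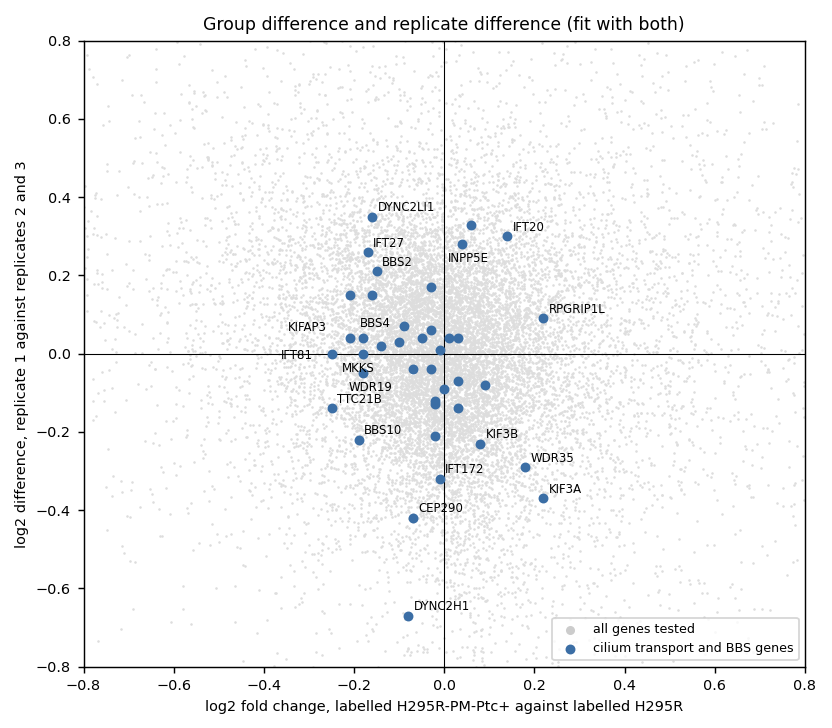
Log2 fold change between the groups (horizontal) and log2 difference of replicate 1 against replicates 2 and 3 (vertical), both from the fit with group and replicate number. Blue points are the 40 genes, named where either difference was called, and grey points are all genes tested, those beyond the axes not being drawn. The blue points reach from -0.67 to 0.35 on the vertical axis and stay within 0.25 of 0 on the horizontal one.

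Exon length, merged over all exons annotated to a gene name and so not the length of a transcript, moved with the replicate difference. Over all 16710 genes the Spearman correlation of exon length with the replicate difference was -0.353, and over the 40 genes it was -0.245, across genes that are not independent replicates and that share the same 6 libraries. The median log2 difference went from 0.14 in the shortest of 5 length classes of all genes to -0.15 in the longest. With the group difference the correlation of length was 0.144 over all genes and 0.0105 over the 40.

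Of the 7 cilium genes lower in the first replicates, 4 were among the 12 that fall in the longest class (over 7.64 kilobases), with DYNC2H1 at 14.3 and CEP290 at 10.4 kilobases. Over genes of every length 16.6% were called lower, and the share within the longest class was not counted. IFT27 and BBS2, both higher, were in that class too. RPGRIP1L, at 12.9 kilobases, had a log2 replicate difference of 0.09 (adjusted p = 0.214). The part of length in any single gene's value was not tested.

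**Figure D5:**
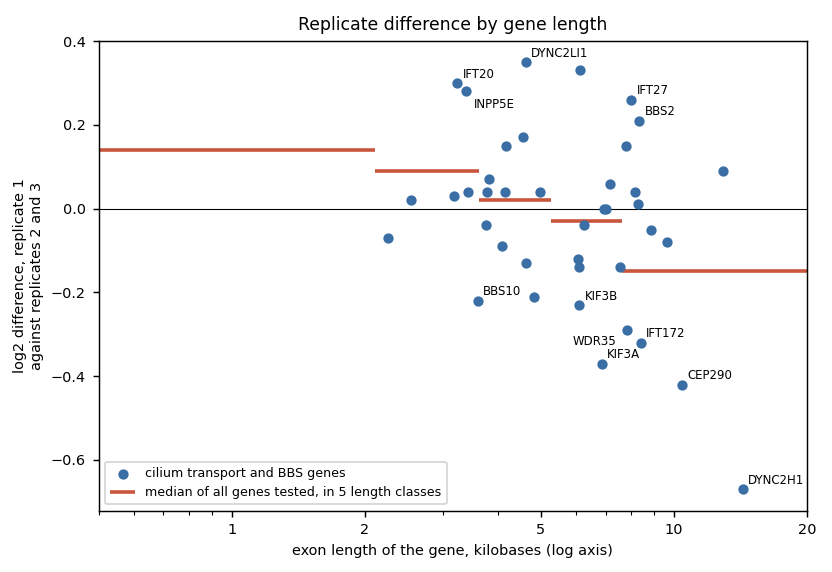
Log2 difference of replicate 1 against replicates 2 and 3 by exon length in kilobases (log axis). Blue points are the 40 genes, named where called, and red bars are the medians of all genes tested in each of 5 length classes, falling from 0.14 to -0.15, with the outer bars cut at the edges of the axis. DYNC2H1 and CEP290 lie below the bar of the longest class.

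Around the 40 genes, 9 lists of further genes held 98 genes, of which 89 were tested. They covered other IFT and dynein-2 subunits, other BBSome genes, other transition zone genes, the basal body, ciliary membrane cargo, cilium transcription factors, cilium disassembly, motile cilium markers and proliferation. By edgeR's quasi-likelihood test 2 of the 89 were higher (against 2.42% of all genes) and 0 lower with the H295R-PM-Ptc+ label, with 13 at an unadjusted p under 0.05 (against 17.3% of all genes), and their median log2 fold change was -0.03, against 0.0 over all genes. DESeq2 called 1 lower and limma-voom 0. With the replicate block the counts were 5 higher (against 12.1% of all genes) and 11 lower (against 10.4%).

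The larger of the 2 was in KIF17, a homodimeric kinesin-2 that moves along the cilium beside the KIF3 motor. It was at 2.09, 1.14 and 1.29 CPM with the H295R label and at 12.7, 8.13 and 7.3 CPM with the H295R-PM-Ptc+ label. All 3 of the latter were above all 3 of the former. Its log2 fold change was 2.64 (SE 0.284, adjusted p = 0.00147), or 6.23-fold, while none of the 3 subunits of the KIF3 motor differed by more than 1.17-fold. Even in the group where it was higher, KIF17 stood at 2.1 CPM per kilobase, against 22.7 for KIF3A.

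MYB, a transcription factor with a role in multiciliated cells and in proliferation, was at 6.86, 8.66 and 7.77 CPM against 14.3, 15.0 and 12.7 CPM (log2 fold change 0.85, SE 0.122, adjusted p = 0.00671). The largest fitted fall among these lists was that of DNAH9, a dynein of motile cilia, at -0.75 (SE 0.333, adjusted p = 0.29), and -1.18 to -0.55 without 1 library. Of the 22 tested transition zone genes outside the 40, 0 were called by edgeR without the block, 4 had an unadjusted p under 0.05 (against 17.3% of all genes), and 6 were called lower and 0 higher with it (against 10.4% and 12.1% of all genes). TMEM237, the nearest to the threshold, had a log2 fold change of -0.38 (SE 0.0872, adjusted p = 0.0518). Its adjusted p was 4.94e-05 with the block, 0.0136 with DESeq2 and 0.0189 with no filter on low counts, and between 0.0501 and 0.0562 with limma-voom, RLE scaling and a minimum of 10 counts in every library. Without 1 library it lay between 0.0119 and 0.178, and was under 0.05 in 1 of the 6 cases, that without H295R replicate 1.

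Genes of motile cilia were mostly low. Of 13 such genes 6 did not pass the filter, DNAI2 had 0 counts in all 6 libraries, and the list summed to between 18.5 and 22.3 CPM with the H295R label and to between 19.4 and 20.5 CPM with the H295R-PM-Ptc+ label. FOXJ1, the transcription factor of motile ciliogenesis, was between 0.0405 and 0.335 CPM. SPAG6, a protein of the central apparatus of motile cilia, was measured at 6.81 to 8.08 CPM, and CCDC40 and ZMYND10 were at 3.28 to 4.66 and 2.14 to 4.44 CPM. Of 10 adrenocortical markers 9 passed the filter, of which edgeR called 2 higher with the H295R-PM-Ptc+ label (against 2.42% of all genes) and 0 lower. CYP21A2, a steroid hydroxylase gene with a near-identical pseudogene that makes its counts uncertain, was at 15.3, 11.1 and 12.1 CPM against 25.0, 23.3 and 22.2 CPM (log2 fold change 0.88, adjusted p = 0.0067). SULT2A1, which sulfates DHEA, was at 58.5, 76.7 and 75.5 CPM against 118, 103 and 97.8 CPM (log2 fold change 0.6, adjusted p = 0.0306). Its adjusted p was between 0.0617 and 0.0879 when any library but H295R replicate 1 was left out. With the block 3 were higher and 1 lower (against 12.1% and 10.4% of all genes), as STAR (log2 fold change 0.41, adjusted p 3.91e-06 with the block and 0.346 without) and CYP11A1 (-0.25, 0.001 and 0.391) were then called. Without the block, the log2 fold change of STAR was 0.62 when H295R replicate 1 was left out and 0.17 when H295R-PM-Ptc+ replicate 1 was, and that of CYP11A1 was -0.1 when H295R replicate 1 was left out. NR5A1, the steroidogenic factor of the adrenal cortex, was between 326 and 407 CPM, and CYP11B1, the last enzyme of cortisol synthesis, was at 3 counts or fewer in every library.

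Cilia are taken down before mitosis, so proliferation genes were set beside the cilium genes. Of 8 tested, edgeR called 0 without the block (against 3.73% of all genes), and 0 had an unadjusted p under 0.05 (against 17.3%). With the block 1 was called, PCNA, which was lower (log2 fold change -0.16, adjusted p 0.0315 with the block and 0.355 without), against 10.4% of all genes called lower. Their summed level lay between 2730 and 3690 CPM against 2880 and 3530 CPM. Between replicates 4 of the 8 were called lower in the first ones (against 16.6% of all genes), and MKI67 had a log2 difference of -0.76 (adjusted p = 9.83e-08). The part of this difference in the values of the cilium genes was not tested.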

How the data were processed

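Poly(A) RNA was sequenced in 6 libraries as paired ends on a NextSeq500. The labels name a stranded total RNA kit and the study's methods a stranded mRNA kit. The authors aligned reads with STAR 2.4.0a to hg38 and deposited raw counts per gene name from featureCounts with Ensembl GRCh38.76 genes, counting by strand and with multi-mapping reads. Whether the strand setting matched the kit was not settled here, and a mismatch would bear on every level. The deposited counts were used unchanged, without 1 unnamed spike-in row that held 0 counts. Totals and count ranges are given with the results. Replicates of a group differed by a chi-square of 6.07 to 28.8 per gene, well beyond sampling noise, so each was counted as a separate library.

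Genes were filtered with filterByExpr, scaled by TMM and tested with edgeR 4.0.16 (R 4.3.3, quasi-likelihood, two-sided, group alone, as in the study's methods, which name no covariate), with Benjamini-Hochberg adjustment over all 16710 genes and a threshold of 0.05. Intervals are 95%. A log2 fold change sets the libraries with the H295R-PM-Ptc+ label against those with the H295R label. The replicate difference was a contrast in a fit with group and replicate number. Nothing in the labels says that replicates were separate cultures, so p-values measure the spread between these libraries. Same-numbered libraries correlated at 0.497, 0.307 and 0.228 in their deviations from group means, from a check of the counts and not from the labels, so the numbers were taken to pair the libraries. Alternatives were DESeq2 1.42.0, limma-voom (limma 3.58.1), RLE scaling, no filter, at least 10 counts in every library, the replicate block, leaving out each library and, added later, leaving out replicate 1 of both groups. The test was also run on simulated data with unpaired or paired replicates. Without the block it recovered 0% of 1.25-fold changes in both. At 1.5-fold it recovered 50% unpaired and 0% paired, and at 2-fold 77.5% and 80.5%. With the block, paired shares at these folds were 43%, 71.5% and 88%, with 8.33% to 11.34% of calls false. Unpaired shares were 0%, 52% and 75.5%. A count of 0 without the block thus does not exclude changes of 1.25-fold, or of 1.5-fold if replicates are paired.

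Exon lengths, shared bases and neighbours (10 tested genes on each side) came from the positions deposited with the counts. Values in every library are given for the largest fitted rise and fall in each role, for the highest and lowest level per length, for the cilium genes called between the groups with the block (chosen after their values were seen), and for the genes outside the 40 that passed the test without it. TMEM237, SPAG6, CCDC40, ZMYND10, STAR, CYP11A1, PCNA and MKI67 were also named after their values were seen. The genes and lists were chosen with earlier results of these data known. The published values were read only to compare their column names with the deposited ones.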

Additional observations from a re-analysis of the deposited data

How the results depend on the processing

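The count of 0 cilium genes called between the groups stayed at 0 with DESeq2, limma-voom, RLE scaling, both other filters and without any 1 library. With the replicate block, which takes same-numbered libraries as pairs, it was 10 (2 higher and 8 lower). Without replicate 1 of both groups, a setting added after seeing the data, it was 3 (1 higher and 2 lower). Of the 9 further lists, the block called 16 genes (5 higher and 11 lower) and leaving out replicate 1 of both groups called 10 of the 89 tested (4 higher and 6 lower), in a setting that called 12% of all genes. DESeq2 and no filter on low counts each called 1 lower, and leaving out 1 library gave 0 to 1 lower. The median log2 fold change of the 40 genes was -0.08 to -0.04 without 1 library, and -0.06 without replicate 1 of both groups. The log2 fold change of PTCH1 was -0.91 to -0.67 without 1 library. Between replicates, 10 to 13 cilium genes were called without 1 library, 3 to 5 of them higher and 6 to 10 lower; 3 higher and 10 lower were called without H295R replicate 1. Among the 40 genes, 17 fitted changes turned, none of them called. Without 1 library their ranges were -0.02 to 0.09 for ARL6, -0.03 to 0.24 for BBS1, -0.15 to 0.13 for BBS5, -0.08 to 0.07 for BBS7, -0.1 to 0.08 for BBS9, -0.06 to 0.05 for BBS12, -0.21 to 0.05 for CEP290, -0.3 to 0.14 for DYNC2H1, -0.08 to 0.0 for IFT80, -0.03 to 0.08 for IFT88, -0.02 to 0.07 for IFT140, -0.11 to 0.09 for IFT172, -0.07 to 0.18 for INPP5E, -0.04 to 0.04 for MKS1, -0.05 to 0.02 for TMEM67, -0.11 to 0.03 for TRAF3IP1 and -0.07 to 0.0 for TTC8. Without replicate 1 of both groups they were -0.02 for ARL6, 0.01 for BBS5, 0.04 for BBS7, 0.02 for IFT172, 0.05 for TMEM67 and 0.0 for TRAF3IP1. MKS1 was -0.0 with DESeq2, limma-voom, RLE scaling and no filter. Among the single genes named, 23 values passed the threshold only under an alternative, and 15 no longer passed it, 10 of them between replicates and 5 of SULT2A1. Of those 10, 2 were with DESeq2, IFT20 (adjusted p = 0.0709) and BBS10 (0.137), and the others without 1 library. Beyond what the alternatives themselves change, the cause was not tested. Depth limits BBS1 most, and 3 libraries a group limit all genes.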
